A study of Oryza sativa with 6 samples.

Results

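Heat stress transcription factors are DNA-binding proteins that carry the heat response of plants. The genes examined here were the 5 listed under the names *HSfA2a*, *OsHsfA6a*, *HSFB2A*, *HSFB2B* and *HSFB2C* in the deposited leaf expression table, which holds 925 genes. They were chosen by their identifiers, and a search of the symbols and descriptions of the table for heat stress transcription factors found the same 5. Because the table lists only genes that the authors had called different between *Dap1* and WT, the difference between the groups is what chose these genes. It is therefore described below and not tested, and other members of the family were not analysed here.

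Leaves of the *japonica* rice variety ZH11 (WT) and of *Dap1*, a mutant line of this variety with a T-DNA inserted upstream of the meristem regulator *OsWUS*, were collected at the booting stage from plants grown in the field. Each group had 3 libraries, described as biological replicates, and neither the plant age in days nor the number of plants behind a library is stated. *Dap1* is a dominant mutant that stems from a single insertion line. In the study the genotyped mutant plants were heterozygous for the insertion, and no homozygous plants were found. Heterozygous plants were taken for its phenotype analysis, while the RNA labels give the genotype only as Dap. *Dap1* headed later than WT, and the day and hour of sampling are not given, so an effect of the mutation and an effect of the sampling day cannot be told apart in any difference described here.

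In the resting cell, heat stress transcription factors are held inactive by the chaperones HSP70 and HSP90. When heat unfolds proteins, the factors are released, assemble into trimers and bind heat shock elements in front of chaperone genes. Class A factors carry short acidic activator motifs and turn genes on. Class B factors lack these motifs, and many of them, in Arabidopsis for example, act as repressors or as partners of class A factors. HsfA2 of Arabidopsis and tomato is itself made in response to heat and prolongs the response.

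The counts on the 925 listed genes ranged from 244181 to 314019 in the WT libraries and from 601642 to 666483 in the *Dap1* libraries. These totals cover genes chosen for changing, so library sizes were taken from the ratio of count to FPKM (the fragment count corrected for transcript length and for the number of mapped fragments), which gave relative sizes of 0.860 to 1.10 in WT and 0.949 to 1.05 in *Dap1*. The gene next to the insertion, *OsWUS*, gave no fragment in WT (0 counts in all 3) but 77, 100 and 105 counts in *Dap1*. No gene described as a Rubisco small subunit or a chlorophyll a/b binding protein is listed, so the leaf label could not be checked against such markers. Of markers of other tissues 1 is listed, *Os05g0196200*, described as similar to a pollen-specific protein, with an FPKM of 2.997 ± 0.757 for WT and 6.22 ± 0.831 for *Dap1* (SD, n = 3 each). Its part in the results was not tested. In RNA from whole leaves, fewer cells of a type and less RNA per cell cannot be told apart. Of all 925 genes, 526 were called higher in *Dap1* and 386 lower by edgeR's quasi-likelihood test, and this split was 342 to 393 with TMM factors, 251 to 393 with DESeq2's size factors and 276 to 118 with limma on log2(FPKM + 1). The TMM and DESeq2 size factors were computed over the listed genes alone, all of them chosen for changing, so their splits carry that limit.

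All 5 heat stress transcription factors were higher in *Dap1* leaves, from 2.34-fold for *HSFB2A* to a ratio of 7089 for *HSfA2a*. In WT the class B gene *HSFB2C* was the most abundant and *HSfA2a* was nearly absent. In *Dap1* the order was led by *HSfA2a*, and the summed FPKM of the 5 genes was 279.5 ± 7.23 there, against 21.0 ± 0.310 for WT leaves (SD, n = 3 each). The count of genes called higher was 5 of 5, beside 56.9% of all listed genes called higher and 98.6% called in either direction. The lowest *Dap1* FPKM exceeded the highest WT FPKM for 5 of 5, beside 57.0% of all listed genes. Both counts follow from the way the table was made.

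**Figure D1:**
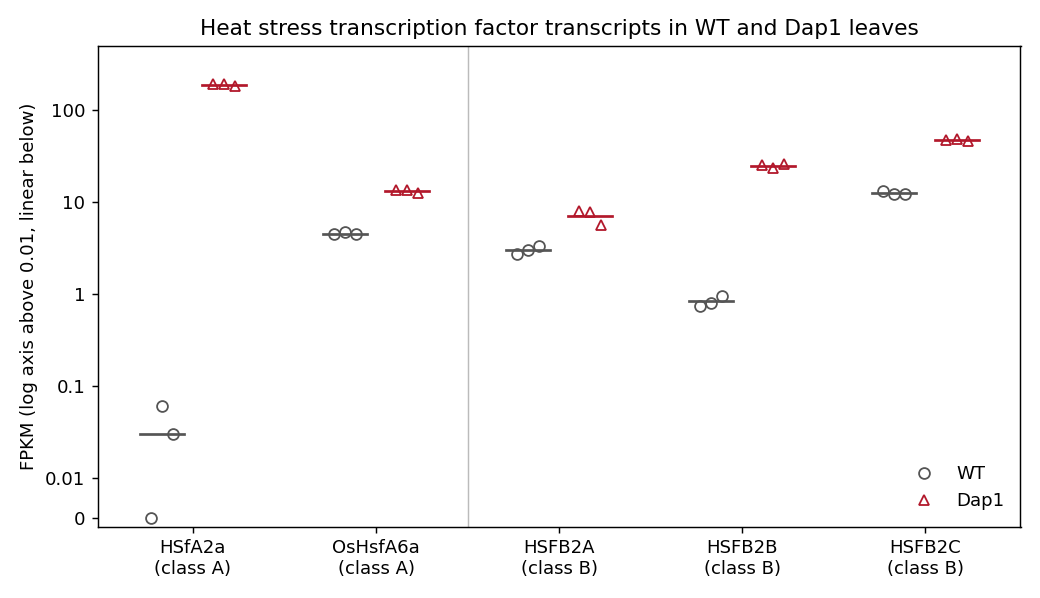
FPKM of the 5 heat stress transcription factor genes in each library (circles, WT; triangles, *Dap1*; lines, group means; n = 3), on an axis that is logarithmic above 0.01 and linear below. *HSfA2a* lies between 0 and 0.06 in WT and between 181.8 and 190.6 in *Dap1*, and no gene overlaps between the groups.

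*HSfA2a* (*Os03g0745000*, class A, on chromosome 3 by its identifier) is annotated in the table as an A-2a type factor. WT replicates 1, 2 and 3 gave 0, 2 and 1 counts, and the corresponding *Dap1* replicates gave 6909, 7491 and 7314. The FPKM was listed at 0, 0.06 and 0.03 in WT and at 190.58, 190.44 and 181.80 in *Dap1*. WT leaves thus gave 3 fragments of this gene in all, and the *Dap1* libraries were close to each other. The ratio of counts per library size was 7089, with a 95% interval of 2425 to 34376 (exact conditional binomial, counting error only). On the log2 scale this is 12.79 (11.24 to 15.07). Since the WT value rests on 3 fragments, the ratio moved with the WT libraries, to 12.12 on the log2 scale without WT replicate 1 and to 13.88 without WT replicate 2.

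*OsHsfA6a* (*Os10g0419300*, chromosome 10) is the other class A gene, described only as a heat stress transcription factor. WT leaves gave 148, 119 and 129 counts of it, against 370, 403 and 381 for the mutant. The FPKM was 4.44, 4.66 and 4.51 in WT and 13.38, 13.55 and 12.49 in *Dap1*. Its libraries were tightly grouped on both sides, and the log2 fold change was 1.51 (standard error 0.10, edgeR), a 2.85-fold higher level. With DESeq2's size factors it was 0.66, inside the threshold of 1 that the study used.

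*HSFB2C* (*Os09g0526600*, class B, chromosome 9) gave 408, 285 and 342 counts for WT leaves, against 1239, 1371 and 1330 for *Dap1*. The FPKM was 13.22, 12.08 and 12.36 in WT and 46.92, 48.08 and 45.63 in *Dap1*. It was the most abundant of the 5 genes in WT and the second in *Dap1*, and its log2 fold change was 1.90 (standard error 0.059, edgeR).

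*HSFB2B* (*Os08g0546800*, class B, chromosome 8) was low in WT, where the libraries held 23, 19 and 27 counts. The *Dap1* libraries held 675, 673 and 756. The FPKM was 0.74, 0.79 and 0.96 in WT and 25.38, 23.32 and 25.61 in *Dap1*. Its level was thus under an FPKM of 1 in all 3 WT libraries and above 23 in all 3 *Dap1* libraries. The log2 fold change of 4.89 (standard error 0.12, edgeR) was the highest among the class B genes, 29.7-fold.

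*HSFB2A* (*Os04g0568700*, class B by its symbol, chromosome 4) carries a description that names Spl7, a heat stress transcription factor known from a rice mutant with spotted leaves. The WT libraries held 66, 57 and 73 counts of it, those of *Dap1* 165, 174 and 130. The FPKM was 2.73, 3.03 and 3.32 in WT and 7.95, 7.72 and 5.64 in *Dap1*. *Dap1* replicate 3 lay 20.6% under the group mean, and this lowest *Dap1* library was 1.70 times the highest WT library. The log2 fold change was 1.23 (standard error 0.17, edgeR), the smallest of the 5 genes and the nearest to the threshold of 1. It was 1.37 without *Dap1* replicate 3. With TMM factors it was 0.77, with DESeq2's size factors 0.38 and with limma on log2(FPKM + 1) 0.999, all inside that threshold. Those factors, computed over the listed genes, lowered the log2 fold change of all genes by a median of 0.45 (TMM) and 0.85 (DESeq2's size factors). Genes of this family outside the threshold of the study were not analysed here, so no values can be set on the other side of it.

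The order of the levels differed between the groups. By mean FPKM, WT leaves had *HSFB2C* at 12.6 ± 0.594, *OsHsfA6a* at 4.54 ± 0.112, *HSFB2A* at 3.03 ± 0.295, *HSFB2B* at 0.830 ± 0.115 and *HSfA2a* at 0.03 ± 0.03 (SD, n = 3 each). In *Dap1* leaves the order was *HSfA2a* at 188 ± 5.03, *HSFB2C* at 46.9 ± 1.23, *HSFB2B* at 24.8 ± 1.26, *OsHsfA6a* at 13.1 ± 0.569 and *HSFB2A* at 7.10 ± 1.27 (SD, n = 3 each). Neighbours in either order did not overlap in any library. The closest neighbours in WT were *OsHsfA6a* and *HSFB2A*, whose means differed by a ratio of 1.499, and in *Dap1* the same genes by a ratio of 1.85. *OsHsfA6a*, *HSFB2A* and *HSFB2C* stood in the same order to each other in both groups, while *HSfA2a* and *HSFB2B* had moved from the last places to the first and the third.

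As FPKM is divided by transcript length, the 5 genes can be added up within a library, and a ratio within a library does not depend on the scaling between libraries. Class A held 21.0%, 22.9% and 21.4% of the summed FPKM of the 5 genes in WT, against 71.8%, 72.1% and 71.7% in *Dap1*. The ratio of class A to class B was 0.279 ± 0.0162 for WT leaves and 2.55 ± 0.0263 for *Dap1* leaves (SD, n = 3 each). The class A majority in *Dap1* was made by *HSfA2a*, which took 67.1% ± 0.126 of the sum there but 0.144% ± 0.146 of it in WT (SD, n = 3 each). *HSFB2C* held 59.8% ± 2.37 in WT and 16.8% ± 0.242 in *Dap1* (SD, n = 3 each), although its own FPKM was higher in *Dap1*. Leaving *HSfA2a* out of the sum, class A, then *OsHsfA6a* alone, held 21.7% in WT and 14.3% in *Dap1*.

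**Figure D2:**
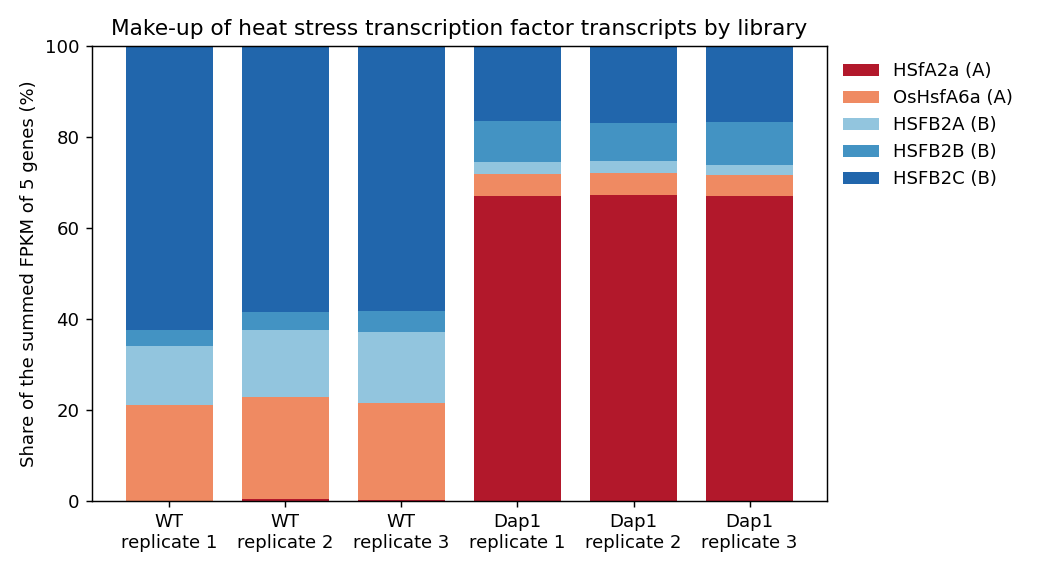
Share of the summed FPKM of the 5 genes held by each gene in each library, in percent (reds, class A; blues, class B). *HSFB2C* fills 58.4% to 62.6% of each WT bar and *HSfA2a* fills 67.0% to 67.3% of each *Dap1* bar.

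Of the rise in the summed FPKM of the 5 genes, *HSfA2a* made up 72.6%, *HSFB2C* 13.3%, *HSFB2B* 9.26%, *OsHsfA6a* 3.33% and *HSFB2A* 1.58%. Within class B the ratio of *HSFB2B* to *HSFB2C* was 0.0560, 0.0654 and 0.0777 for WT, against 0.541, 0.485 and 0.561 for *Dap1*, so the make-up of class B differed too. The ratio of *OsHsfA6a* to *HSFB2A* was 1.51 ± 0.137 in WT and 1.88 ± 0.288 in *Dap1* (SD, n = 3 each), and its lowest *Dap1* library, at 1.68, lay just above the highest of WT, at 1.63. That of *OsHsfA6a* to *HSFB2C* was 0.362 ± 0.0251 in WT and 0.280 ± 0.00588 in *Dap1* (SD, n = 3 each).

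In fold change the classes did not separate. The mean log2 fold change was 7.15 for the 2 class A genes and 2.67 for the 3 class B genes, a difference of 4.48. This difference rested on *HSfA2a*. Without it, class A was *OsHsfA6a* alone at 1.51, which lay between *HSFB2A* at 1.23 and *HSFB2C* at 1.90, and the difference became -1.16. The summed FPKM of class A was 44.0 times as high in *Dap1* as in WT and that of class B 4.80 times as high. With 2 and 3 genes chosen for this contrast, no test between the classes was made.

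The spread between replicate libraries was measured as the coefficient of variation, the SD of FPKM as a percent of its mean. For class A it was 2.48% (*OsHsfA6a* in WT), 4.33% (*OsHsfA6a* in *Dap1*) and 2.68% (*HSfA2a* in *Dap1*). *HSfA2a* in WT, at a mean of 1 count, had no usable value. For class B it ranged from 4.73% to 13.9% in WT and from 2.61% to 17.9% in *Dap1*. The widest was that of *HSFB2A* in *Dap1*, at a mean count of 156, followed by *HSFB2B* in WT, at a mean count of 23.

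Counting error alone would give *HSFB2B* in WT 20.9%, *HSFB2A* in WT 12.4%, *HSFB2C* in WT 5.38% and *OsHsfA6a* in WT 8.70%, and each of these genes was below that value in FPKM. From scaled counts *HSFB2C* in WT was at 5.69%. In *Dap1* the spread exceeded counting error for *HSFB2A*, at 17.9% against 7.998%, for *HSfA2a*, at 2.68% against 1.18%, and for *HSFB2B*, at 5.09% against 3.78%. With DESeq2's size factors the spreads of these genes in *Dap1* were 16.6%, 1.35% and 5.74%. That of *HSfA2a* was then close to counting error. Relative to counting error, *HSfA2a* and *HSFB2A* in *Dap1* were alike, at 2.28 and 2.24 times that error from scaled counts. *Dap1* replicate 3 was also the lowest *Dap1* library of *HSfA2a*, *OsHsfA6a* and *HSFB2C*, at -3.10%, -4.95% and -2.66% from the mean, but not of *HSFB2B*. In percent *HSFB2A* in *Dap1* was the widest, with replicate 3 the farthest from its mean. Of 191 other listed genes with a mean count within a factor of 2 of its own in *Dap1*, 86.9% had a smaller coefficient of variation, the median being 9.41%. For *OsHsfA6a* in WT, 4.55% of 176 such genes had a smaller one. An SD from 3 libraries is itself imprecise, so an order of the classes by spread cannot be read from these values.

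**Figure D3:**
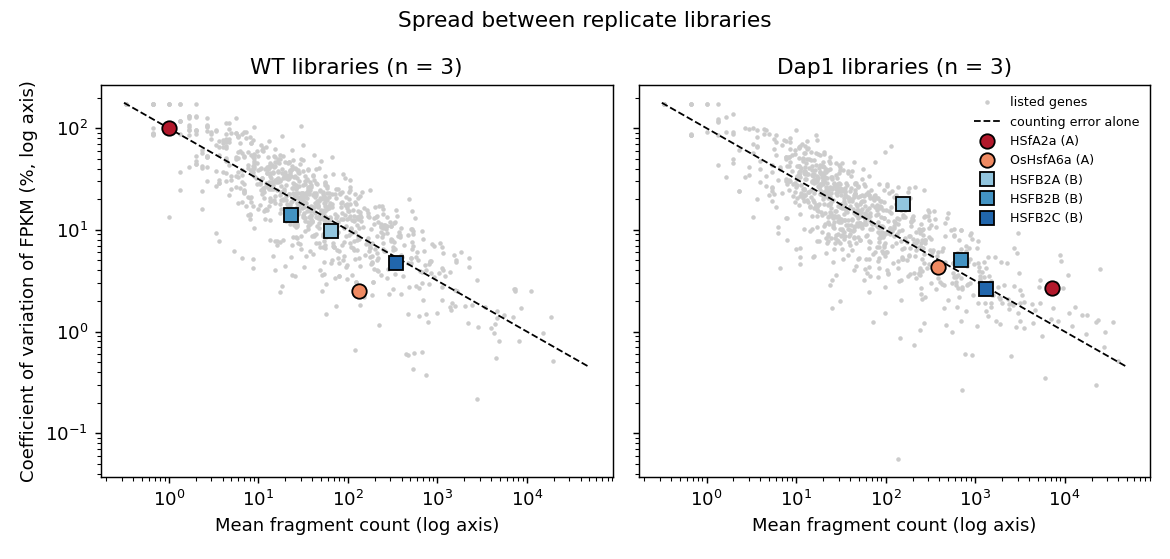
Coefficient of variation of FPKM between the 3 libraries of a group (percent) against the mean fragment count, both on log axes, for WT (left) and *Dap1* (right). Grey points are all listed genes, the dashed line is counting error alone, and *HSFB2A* in *Dap1* at 17.9% lies above the line while *OsHsfA6a* in WT at 2.48% lies below it.

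Among the 32 listed genes annotated with DNA-binding transcription factor activity, *HSfA2a* was last by mean FPKM in WT and first in *Dap1*. *HSFB2C* was the third in WT and the second in *Dap1*, and *HSFB2B* moved from place 22 to place 4. *OsHsfA6a* and *HSFB2A* were at places 5 and 8 in WT and 7 and 9 in *Dap1*. Of the 27 other genes with this term, 8 were called higher and 19 lower in *Dap1*, with a median log2 fold change of -1.18. The highest of these 27 by FPKM in *Dap1* was *OsMADS55* at 35.0, so 2 of the heat stress transcription factors, *HSfA2a* and *HSFB2C*, lay above it.

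The annotation of the 5 genes does not follow their class. The GO term for positive regulation of transcription in response to heat stress was given to 4 listed genes, and these were *OsHsfA6a* and the 3 class B genes, although class B factors lack the activator motif. *HSfA2a* carried no term that names heat. None of the 5 genes carried the separate term response to heat, so they do not enter the count of 27 genes with that term below.

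The genes whose profile was most like that of each factor were found by the distance between log2(scaled count + 1) over the 6 libraries, each profile taken relative to its WT mean, among 426 listed genes whose mean count reached 50. By this measure, genes of like fold change come first. Nearest to *HSfA2a* were *Hsp90* (*Os04g0107900*, a chaperone of the HSP90 family) at a distance of 2.42, the cytosolic small heat shock gene *Oshsp16.9A* at 2.61 and the hypothetical gene *Os02g0259850* at 3.84. WT libraries held 0, 2 and 0 counts of *Hsp90*, and *Dap1* libraries 2141, 2411 and 2390. For *HSFB2B* the nearest were *OsPUB63* at 0.395, the annexin gene *OsANN5* at 0.407 and *Os08g0520600* at 0.531. *OsANN5*, which was low in WT, gave 20, 22 and 21 counts there and 621, 639 and 672 in the mutant.

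None of the 3 nearest genes of *HSFB2B* is a chaperone by its description. *OsHsfA6a* was nearest to *OsNRAMP6*, *Os07g0209100* and *OsDHAR1*, a dehydroascorbate reductase that regenerates the antioxidant ascorbate, at distances of 0.180, 0.184 and 0.197. *HSFB2C* was nearest to *Os07g0178700*, the heavy metal ATPase gene *HMA4* and the tonoplast aquaporin gene *OsTIP1*, at 0.207, 0.209 and 0.243. For *HSFB2A* these were *PsbP*, *Os03g0856500* and *OsABA8OX2*, at 0.278, 0.323 and 0.324. *PsbP* gave 103, 111 and 86 counts in the *Dap1* replicates. The distance includes *Dap1* replicate 3, so a like value there follows from how the gene was picked.

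The table also lists chaperones and other genes of the heat response, many of them of families on which heat stress transcription factors act. All 18 listed small heat shock protein genes, which hold unfolded proteins in solution, were called higher in *Dap1*, with a median log2 fold change of 6.07, or 5.14 with the 8 genes of at most 3 counts in each WT library set against a floor of 3 counts per library. The median over all 925 genes was 1.15. *Oshsp16.9A* was the highest, with 1, 0 and 3 counts for WT against 3995, 4498 and 4554 for *Dap1*, a ratio of 3194 (95% interval 1247 to 11726, counting error only). The lowest was *Oshsp17.9B.* at 1.10 (standard error 0.056). Small heat shock genes have near-identical copies among which reads can be split, so their single values are uncertain.

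The ClpB/HSP100 disaggregases, which pull proteins out of aggregates, were higher in 3 of 3 listed genes, from *ClpB-c* at a log2 fold change of 2.09 (standard error 0.027) to *HSP101* at 8.14 (standard error 0.079). WT libraries held 21, 22 and 12 counts of *HSP101*, and *Dap1* libraries 5162, 5256 and 5492. Its FPKM was 0.74, 1.78 and 0.25 in WT and 158.32, 152.11 and 162.21 in *Dap1*. The WT level was thus low and uneven, and the fold change is less certain than its standard error implies. For other genes this low in WT the standard error can likewise be too small. Of 7 listed HSP70 genes, 6 were called higher. *HSP70* (*Os03g0277300*) was the highest at 6.30 (standard error 0.10), and *OsISC23*, a mitochondrial form, had a value of 0.994 (standard error 0.034), just inside the threshold. HSP90 and its partners were called higher in 6 of 6 genes, with *OsHSP82A* the lowest at 1.24 (standard error 0.026). The DnaJ co-chaperones were higher in 7 of 7 genes, from *OsDjC23* at 1.31 (standard error 0.052) to *OsDjC53*, with 2, 2 and 1 counts for WT against 235, 240 and 228 for *Dap1*.

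Of 5 heat-linked genes that are not chaperones, 4 were called higher. The highest was *HSA32*, a gene of long-term acquired thermotolerance, at 4.24 (standard error 0.11). *CATA1*, a catalase that breaks down hydrogen peroxide, was lower, at -1.13 (standard error 0.048). Of the 27 listed genes with the term response to heat, 26 were called higher and 1 lower. These lists were drawn from a table of called genes, beside which 56.9% of all listed genes were called higher, so the counts say nothing of heat genes outside it.

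Set beside these lists, *HSfA2a* lay with the chaperone genes that were nearly silent in WT. *HSFB2B*, at a log2 fold change of 4.89, was below the median of the small heat shock genes, which was 6.07 as fitted and 5.14 with the floor of 3 counts. The log2 fold change of *HSFB2A* was above that of only 3 of the 48 genes in the lists, and above that of 97 of the 526 listed genes called higher.

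**Figure D4:**
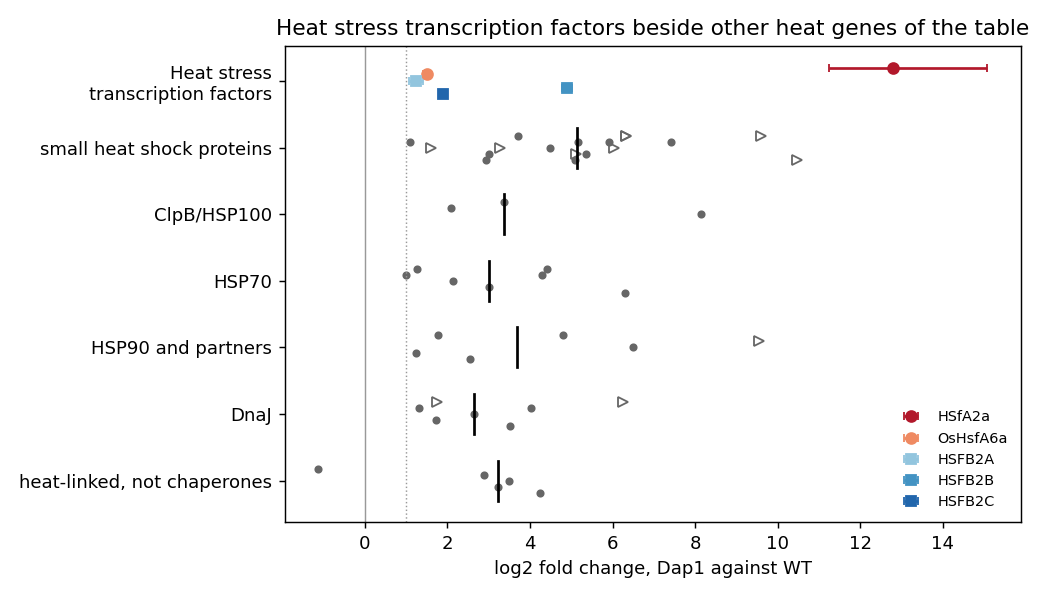
Log2 fold change (*Dap1* against WT) of the 5 heat stress transcription factors (circles, class A; squares, class B; bars, standard error, and for *HSfA2a* the 95% counting interval) and of the listed genes of 6 groups of heat genes. The bar of *HSFB2B* is narrower than its counting error alone implies. Arrowheads are genes with at most 3 counts in each WT library, set against a floor of 3 counts per library, and black lines are group medians. *HSfA2a* is drawn at its count ratio, 12.79, and not against that floor, so its place beside the arrowheads compares unlike measures. As a ratio of counts *Hsp90* was at 3399 (95% interval 941 to 28076) and *HSfA2a* at 7089 (2425 to 34376), so their intervals overlap.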

How the data were processed

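RNA from rice leaves (3 WT and 3 *Dap1* libraries) was selected for poly(A) and sequenced. The authors used Fastp to filter reads, Bowtie 2 to take out rRNA, HISAT 2 for mapping to Nipponbare, Stringtie for transcripts and RSEM for expression. Versions, annotation release and use of strand are not given in the sources used here. The deposited table gives raw fragment counts and FPKM, for called genes only. It also holds the authors' mean FPKM, log2 fold change, p-value and FDR of their own comparison, which were not used. None of its identifiers matched the RefSeq table (0 matched), so no coordinates are given, and no promoter or protein sequence was analysed here.

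Library sizes were the median count/FPKM ratio over the 258 genes that reached an FPKM of 2 in all libraries. All 925 genes were fitted with edgeR 4.0.16 (glmQLFit, glmQLFTest; R 4.3.3) without a filter, and called at an adjusted p (Benjamini-Hochberg) under 0.05 with a log2 fold change over 1 in size. Standard errors were derived from the F statistic, and for genes low in WT they can be smaller than counting error alone. The script was tested on simulated counts. Alternatives used TMM, DESeq2 1.42.0 and limma 3.58.1. For *HSfA2a* the ratio of summed counts replaced the fitted value. Intervals (95%) cover counting error only. Depth of whole libraries is unknown. Genes and lists were chosen with earlier results of these data known. Named were the 5 factors, the 3 nearest profiles of each, and the highest and lowest gene of each list and any called the other way. *OsWUS* and *OsMADS55* were added.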

Additional observations from a re-analysis of the deposited data

How the results depend on the processing

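The genes were chosen on this contrast, so calls that stay show no stability. With TMM factors and with limma on log2(FPKM + 1) 4 of the 5 factors were called higher, without *HSFB2A*. With DESeq2's size factors 3 were called higher, without *HSFB2A* and *OsHsfA6a*. TMM factors, limma on log2(FPKM + 1) and DESeq2's size factors called 735, 394 and 644 of all 925 listed genes in either direction, against 912. Of the 925, they called 342, 276 and 251 higher, against 526. With each library left out in turn 5 of the 5 factors stayed called. All calls then ranged from 858 to 882, and calls of higher genes from 502 to 515. The difference of mean log2 fold change between class A and class B, 4.48, was 2.22 and 3.41 with limma on log2(FPKM + 1) and log2(FPKM + 0.1) and lay between 4.18 and 5.05 when single libraries were left out. Chosen after seeing the data, it was 3.70 and 5.62 with *HSfA2a* at the ends of its counting interval, 5.59 without *HSFB2B*, and -1.16 without *HSfA2a*. From scaled counts, not divided by transcript length, the class A share was 23.6% in WT and 77.8% in *Dap1*. It was 14.3% in *Dap1* when *HSfA2a* was left out, and lay between 21.2% and 22.2% in WT and between 71.7% and 71.9% in *Dap1* when single libraries were left out. The coefficient of variation of *OsHsfA6a* in WT was 3.76% from scaled counts, and that of *HSFB2C* in WT 8.16% with DESeq2's size factors. The cause of these changes was not tested. Same-numbered libraries did not pair (correlations of their deviations of 0.0108, -0.0787 and 0.00048). A replicate block left 5 of the 5 factors called, all calls at 912, of which 525 were higher, and the class difference at 4.48. DESeq2's Wald test, limma on log2(FPKM + 0.1) and a minimum mean count of 10 also left 5 of the 5 called. They called 915, 875 and 814 listed genes in all, of which 527, 512 and 470 were higher.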
